A study of Homo sapiens with 17 samples.

Results

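The genes described here are 33 genes of the integrated stress response and of amino acid synthesis, the pathway that runs through the transcription factors ATF4 and CHOP (gene symbol DDIT3). They were listed by name and not by a cutoff on a measured value, but with earlier results of these data known. All 33 were found by symbol among the 19141 genes of the count table. All 33 also passed the filter on low counts, which left 14491 genes in the fit of the 2, 24, 48 and 72 h libraries and 16521 genes in the fit that added 10 h. The cells were YB5, a human line derived from the SW48 colon cancer line that carries a single silenced insertion of a GFP gene under the CMV promoter. They were given either 250 nM toyocamycin, an adenosine analog made by Streptomyces bacteria, or its vehicle DMSO. Polyadenylated RNA was sequenced in 17 libraries, 8 from DMSO and 9 from toyocamycin. Each arm held 2 libraries at 2 h, 1 library at 24 h, 1 library at 48 h and 3 libraries at 72 h, while 10 h had 1 DMSO library and 2 toyocamycin libraries. The labels give 72 h for the last time, where the study's text gives a later hour, and the labels' time is used here. The data come from 1 cell line and 1 dose.

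In the integrated stress response, kinases that sense amino acid shortage, misfolded protein in the endoplasmic reticulum, viral RNA or lack of heme phosphorylate the translation initiation factor eIF2 on its alpha subunit. Most protein synthesis then slows, while the ATF4 message is translated more, and ATF4 together with C/EBP family partners turns on genes for amino acid uptake, amino acid synthesis and one-carbon metabolism. With lasting stress CHOP is made, and its targets include PPP1R15A (GADD34), the subunit that guides a phosphatase back to eIF2 alpha. RNA counts measure messages only and not the phosphorylation or translation steps of this pathway.

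The libraries held between 8735465 and 22121364 counts on genes, the lowest being replicate 2 of toyocamycin at 10 h. The 100 most abundant genes took 18.6% to 22.2% of the counts in the DMSO libraries and 34.5% to 37.4% in the toyocamycin libraries of 24 to 72 h. The 33 genes together took 0.289% to 0.424% of the counts in DMSO and 1.12% to 1.14% in the 3 toyocamycin libraries of 72 h. Of 12 colon epithelium markers, 7 exceeded 1 CPM (counts scaled to a common library size) in every library, while CDX1 was at 0 in all but 1 library and KRT20 had at most 7 counts. The summed level of these markers was 5994 to 6936 CPM in DMSO and 566 to 599 CPM in toyocamycin at 72 h. Most of the DMSO sum was KRT8 (mean 4293 CPM, 268 CPM in toyocamycin) and KRT18 (1215 and 34.9 CPM). EPCAM, CDH1, KRT19 and VIL1 were lower on toyocamycin too. In contrast, CDX2 (69.6 CPM in DMSO and 103.8 CPM in toyocamycin), LGR5 (4.43 and 29.6 CPM) and CDH17 (1.03 and 7.72 CPM) were higher. The 6 fibroblast markers summed to 0.464 to 22.4 CPM over all libraries. The 5 immune markers summed to 51.9 to 67.2 CPM in toyocamycin at 72 h against 0.601 to 0.929 CPM in DMSO, nearly all of it CD79A. Whether fewer of the cells held a message or each cell held less of it cannot be told apart in bulk RNA. CPM are relative to the library, so a change in total RNA per cell is not measured. The p-values below measure the spread between these libraries.

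Because ATF4 binds DNA together with C/EBP proteins at a composite site, the promoters of the members were read for that site, the C/EBP-ATF response element TGATGNAAN, on both strands. RefSeq promoters on GRCh38.p14 (250 bases before to 50 bases after a start) were on hand for 28 of the 33 genes. NUPR1, PSPH, SHMT2, ALDH1L2 and PYCR1 had no entry. The element's letters stood in a promoter of 7 of the 28 members (25%) and of 4.45% of all 27305 genes with a promoter. A gene with several starts has several promoters. Counted by promoter, the letters stood in 16.7% of 42 for the members and in 3.61% of all 35116. In 5 members the match lay upstream of the start, and these stretches are shown so that the matches can be read in place. Each line gives the strand of the gene from 5′ to 3′, with the match in capitals.
ATF3: aaggtcaggaTGATGGAAGgctgtcatat
CEBPG: gcgcggcgtcTGATGCAACctgccggcaa
JDP2: tagccggggcTGATGCAACccgtccc
CHAC1: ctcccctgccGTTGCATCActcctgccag
ASNS: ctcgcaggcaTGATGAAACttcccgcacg

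The ATF3 stretch is chr1:212565206-212565234 on the plus strand, upstream of every GENCODE transcript of the gene. The CEBPG stretch (chr19:33374061-33374089, plus strand) and the JDP2 stretch (chr14:75427996-75428021, plus strand) lie in an intron of a longer transcript. The CHAC1 stretch (chr15:40953251-40953279, plus strand) and the ASNS stretch (chr7:97872458-97872486, minus strand) lie within an annotated exon of a transcript that starts further upstream. In CHAC1 the match runs against the direction of the gene. SLC3A2 and SLC7A1 held a match just after a start. The cAMP response element TGACGTCA stood in the promoter of PPP1R15A, from base -58 to -51, in no other member, and in 2.25% of all genes. Its core TGACGT, which the full element contains, was found in 4 members (14.3%) and in 9.64% of all genes, and the NF-Y box CCAAT in 17 members (60.7%) and in 39.7% of all genes. Counted by promoter, the core stood in 9.52% for the members and 7.98% for all, and the NF-Y box in 45.2% and 34.6%. A match is a description of letters and not of binding.

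The members called at 2 h were all lower, and at 72 h they moved both ways. At 2 h, 0 of the 33 were higher in toyocamycin and 7 were lower (edgeR quasi-likelihood test, Benjamini-Hochberg adjusted p under 0.1), where 0.518% and 8.42% of all genes tested were higher and lower. The count of 0 stayed 0 at an unadjusted p under 0.05 and with DESeq2. At 10 h 11 were higher and 7 lower (all genes 20.4% and 24.4%), at 24 h 16 and 3 (30.7% and 32.0%), and at 48 h 17 and 5 (39.2% and 35.5%). At 72 h 20 were higher and 10 lower, 60.6% and 30.3% of the members, where 47.0% and 41.9% of all genes were. In either direction 88.8% of all genes passed at 72 h, so that a member's passing there is no distinction in itself.

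The median log2 fold change of the members was -0.25 at 2 h, where all genes had 0.02. It was 0.44 at 10 h (all genes 0.42, and 0.06 or 0.19 for the members with replicate 1 or replicate 2 of toyocamycin alone), 0.61 at 24 h (0.00), 0.74 at 48 h (0.16) and 0.63 at 72 h (0.18). When the members at or under 3 counts in a group were held at their bound, the medians at 2 and 24 h were -0.19 and 0.51, and those at 10, 48 and 72 h were the same. These values follow TMM scaling, and at 72 h the median of all genes was 0.50 with DESeq2 size factors, -0.42 with library size alone and -0.89 when scaled on the genes encoded in mitochondria. At 24 h it was -0.91 and -2.16 with these last scalings. The members' median at 72 h moved with it and lay 0.45 to 0.46 above that of all genes under each of these scalings. A change of scaling shifts all genes nearly alike, so it could hardly have changed this gap. The gap did change with the genes and libraries used, being -0.14 with no filter, 0.12 with all 17 libraries in the fit, 0.97 with at least 10 counts in every library and 0.77 without replicate 2 of DMSO.

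**Figure D1:**
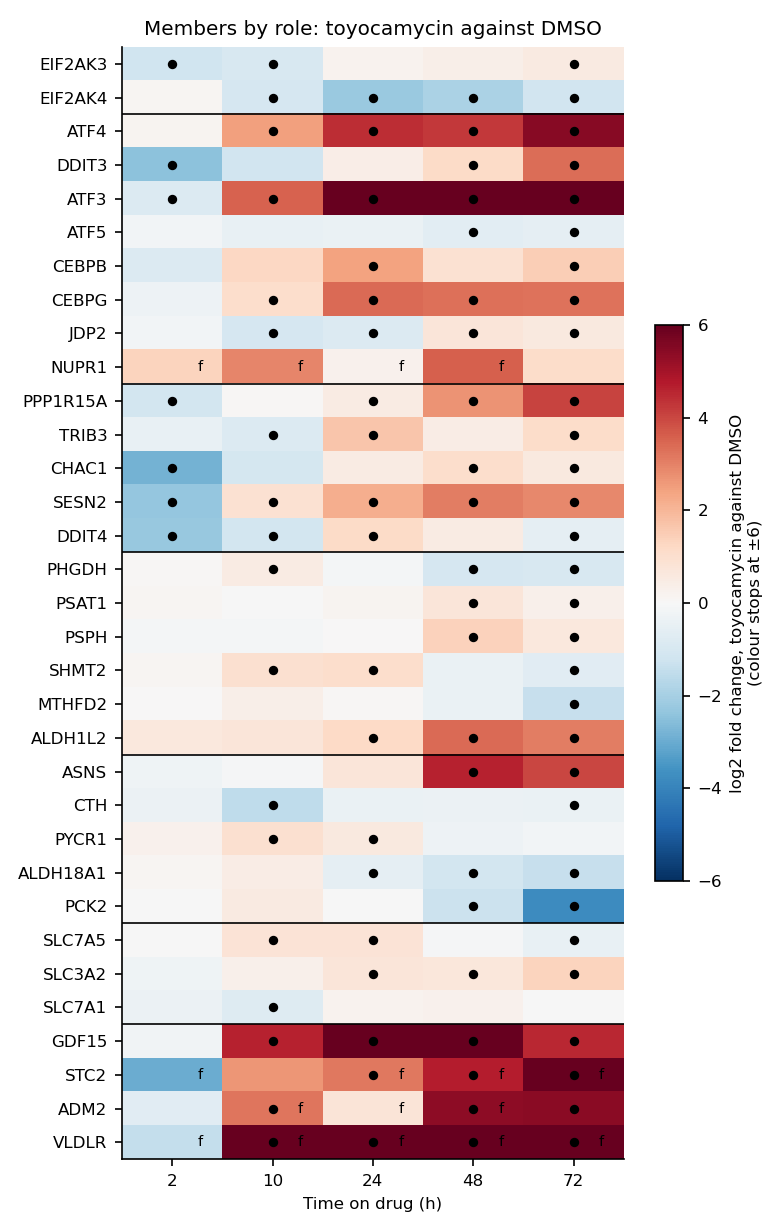
Log2 fold change of toyocamycin against DMSO for the 33 genes (rows, grouped by role) at 2, 10, 24, 48 and 72 h (columns). Red is higher and blue is lower, with the colour ending at 6 log2 units, a dot marks an adjusted p under 0.1, and f marks a fitted value against a group with at most 3 counts in each library. At 2 h all 7 dots are blue, and at 72 h 20 are red and 10 are blue.

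The 2 kinases among the members moved in opposite directions at 72 h. EIF2AK3 encodes PERK, the kinase of the endoplasmic reticulum. Its level at 2 h was 12.3 and 10.7 CPM in DMSO and 5.14 and 4.98 CPM in toyocamycin, and at 72 h 14.1, 12.5 and 12.4 CPM against 18.4, 17.5 and 20.2 CPM. The toyocamycin libraries lay below both DMSO libraries at 2 h and above all 3 at 72 h. By the same edgeR test it fell at 2 h by 1.19 on the log2 scale (SE 0.19, adjusted p = 0.00104) and rose at 72 h by 0.56 (SE 0.15, adjusted p = 0.00267), the fall losing its call with mitochondrial scaling (adjusted p = 0.497) and the rise turning to -0.04 with library size alone and -0.53 with scaling on mitochondrial genes.

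EIF2AK4 encodes GCN2, the kinase that senses uncharged tRNA. Its level did not pass at 2 h (85.5 and 106.9 CPM in DMSO, 102.2 and 109.8 CPM in toyocamycin). At 24 h it stood at 97.3 CPM in DMSO and 20.8 CPM in toyocamycin, and at 72 h at 87.9, 92.0 and 96.5 CPM against 41.6, 36.8 and 43.1 CPM. It was lower at each time from 10 h on and is the only member called lower at all 4 of these times. At 72 h it fell by 1.15 on the log2 scale (SE 0.13, adjusted p = 4.99e-07, edgeR), a 2.22-fold drop.

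Among the 8 transcription factors and co-regulators, 6 were higher and 1 lower at 72 h. ATF4, the central factor of the pathway (chromosome 22, 39519695-39522683, plus strand, GRCh38), had 148.5 and 107.9 CPM in DMSO and 144.1 and 146.8 CPM in toyocamycin at 2 h, and the arms overlapped. At 10 h the 2 toyocamycin libraries had 464.4 and 176.8 CPM against 57.7 CPM in DMSO. At 24 h the levels were 1705 against 79.1 CPM and at 48 h 3205 against 173.6 CPM, in toyocamycin and DMSO. At 72 h DMSO had 133.8, 170.1 and 171.0 CPM and toyocamycin 6988, 6871 and 6550 CPM. The level thus rose at each later time while DMSO stayed between 57.7 and 173.6 CPM over all its libraries. At 72 h the log2 fold change was 5.46 ± 0.18 (SE, edgeR, adjusted p = 9.86e-13), which is 43.9-fold.

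ATF3, a stress factor of the ATF family and a target of ATF4 (chromosome 1, 212565334-212620777, plus strand), showed the largest rise of its group. In DMSO it lay between 2.03 and 3.83 CPM in all 8 libraries. At 2 h toyocamycin gave 2.57 and 1.57 CPM against 3.83 and 3.65 CPM in DMSO. At 10 h it gave 39.6 and 11.2 CPM, at 24 h 251.9 CPM, at 48 h 518.1 CPM, and at 72 h 2146, 2205 and 1853 CPM. The toyocamycin libraries did not overlap DMSO of the same hour, being below it at 2 h and above it afterwards. At 72 h the log2 fold change was 9.85 ± 0.22 (SE, edgeR, adjusted p = 1.15e-13), and at 2 h it was -0.83 ± 0.24 (adjusted p = 0.0462). The call at 2 h was lost when replicate 1 or replicate 2 of DMSO or replicate 2 of toyocamycin was left out, with adjusted p of 0.139, 0.102 and 0.353.

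DDIT3, which encodes CHOP (chromosome 12, 57516588-57521737, minus strand), came later than ATF4. DMSO and toyocamycin had 4.75 and 2.52 CPM against 0.746 and 0.542 CPM at 2 h, and 1.14 CPM against 0.714 and 0.221 CPM at 10 h. The levels were 1.75 against 2.27 CPM at 24 h and 5.92 against 13.1 CPM at 48 h. At 72 h DMSO had 5.65, 9.66 and 7.08 CPM and toyocamycin 73.1, 70.1 and 77.7 CPM. The drug libraries were thus below DMSO up to 10 h, near it at 24 h and above it from 48 h on. edgeR gave a fall of 2.48 on the log2 scale at 2 h (SE 0.38, adjusted p = 0.000676) and a rise of 3.33 ± 0.22 (SE) at 72 h (adjusted p = 1.32e-09), which is 10.1-fold. Of the exonic bases of DDIT3, 27.2% are shared with MARS1 on the opposite strand, and the strand setting of the counting is not given in the sources used here.

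CEBPG, a short C/EBP protein that pairs with ATF4, rose at each time from 10 h on. Its DMSO libraries ranged from 38.2 to 64.2 CPM over all times, and toyocamycin reached 394.7 CPM at 24 h, 531.4 CPM at 48 h and 609.1, 511.2 and 525.5 CPM at 72 h. Each of these libraries was above every DMSO library. The log2 fold change at 72 h was 3.26 ± 0.13 (SE, adjusted p = 6.25e-12, edgeR). The call at 10 h turned to -0.04 with scaling on mitochondrial genes.

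CEBPB, a C/EBP factor of inflammation and differentiation, had 106.8, 87.3 and 58.5 CPM in DMSO at 72 h and 203.1, 236.2 and 252.9 CPM in toyocamycin. All 3 drug libraries were higher, by 1.49 ± 0.29 on the log2 scale (SE, adjusted p = 0.000192, edgeR), which became 0.34 with mitochondrial scaling (adjusted p = 0.481). JDP2, a repressor of the AP-1 family, was lower at 10 h, by 0.99 on the log2 scale (-0.59 with replicate 1 of toyocamycin alone). With 1 library an arm, toyocamycin had 18.0 CPM against 32.5 CPM in DMSO at 24 h, and 30.7 against 18.9 CPM at 48 h. These drug values lie within the range of the DMSO libraries over all times, 16.1 to 32.5 CPM. At 72 h JDP2 was higher. Its rise at 72 h was 0.59 ± 0.18 (SE, adjusted p = 0.00558, edgeR), and it became -0.01 with library size alone and -0.52 with mitochondrial scaling.

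ATF5, an ATF4 relative that governs mitochondrial stress genes, was the group's fall. DMSO had 39.4, 37.7 and 33.6 CPM at 72 h and toyocamycin 26.2, 24.3 and 24.3 CPM. It fell by 0.53 on the log2 scale (SE 0.14, adjusted p = 0.00263, edgeR), a call that DESeq2 size factors took away (-0.21, adjusted p = 0.18). NUPR1, a small co-regulator of stress transcription, did not pass at any time. Its counts at 72 h were 7, 7 and 4 in DMSO and 0, 17 and 2 in toyocamycin. The 17 counts came from replicate 2, in which the fibroblast markers summed to 21.7 CPM against 2.56 and 2.95 CPM in the other toyocamycin libraries, and the part of this in the value was not tested.

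**Figure D2:**
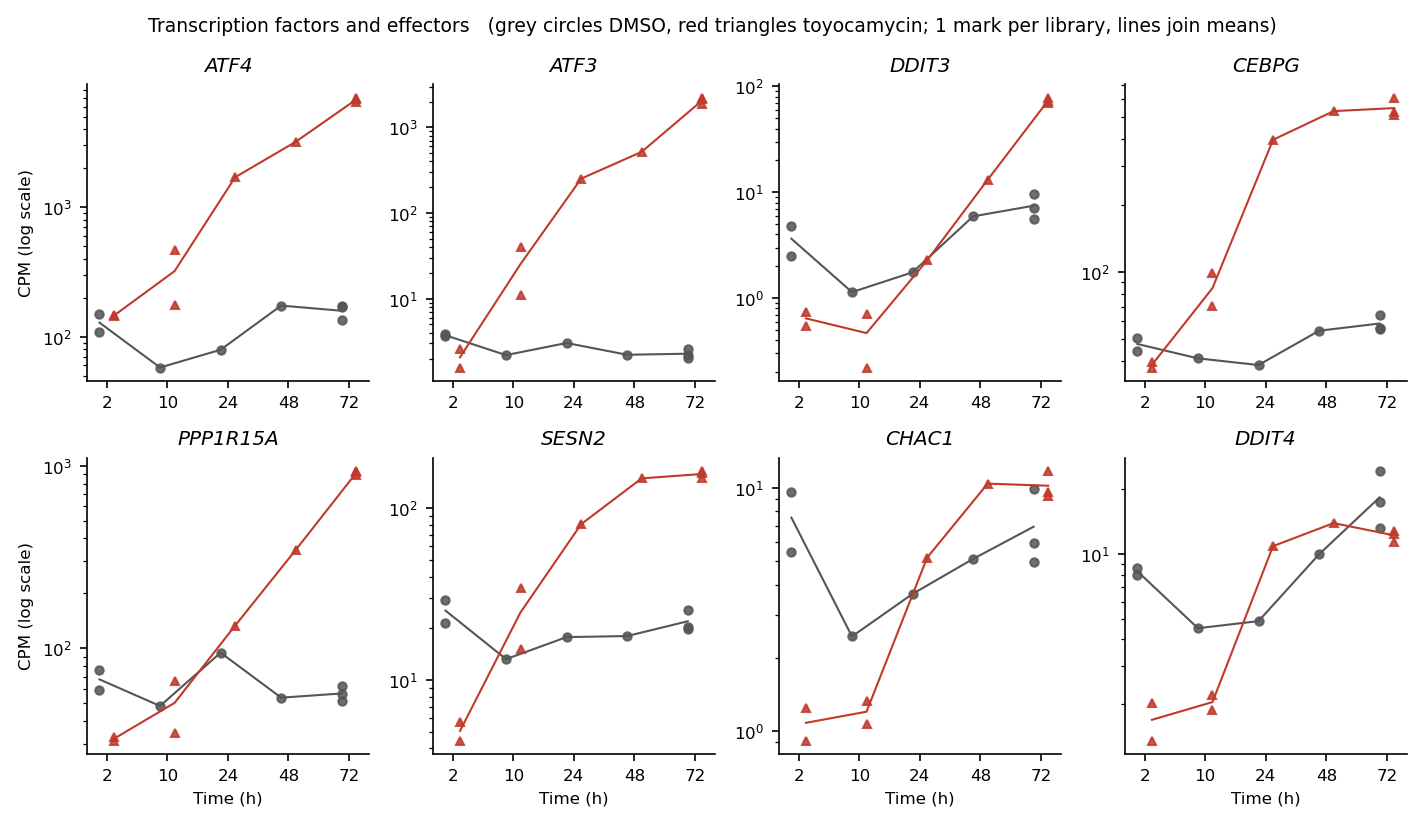
CPM of 8 transcription factors and effectors on a log axis against time in hours (evenly spaced), with 1 mark for each library, grey circles for DMSO, red triangles for toyocamycin, and lines through the means. ATF4 and ATF3 lie above DMSO from 10 h on. ATF3, DDIT3, SESN2, CHAC1, PPP1R15A and DDIT4 start below DMSO at 2 h.

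The effectors were the group with most falls at 2 h, where 4 of 5 passed as lower and TRIB3 did not. At 72 h 4 of the 5 were higher and DDIT4 was lower. PPP1R15A, which encodes GADD34, had 76.2 and 58.8 CPM in DMSO at 2 h and 31.2 and 32.7 CPM in toyocamycin. At 24 h it stood at 94.6 CPM in DMSO and 133.2 CPM in toyocamycin, and at 48 h at 53.6 and 346.1 CPM. At 72 h DMSO had 51.3, 62.4 and 55.8 CPM and toyocamycin 892.9, 937.4 and 921.2 CPM. The drug libraries passed from below DMSO to far above it. edgeR gave a fall of 1.08 on the log2 scale at 2 h (SE 0.16, adjusted p = 0.00056) and a rise of 4.05 ± 0.15 (SE) at 72 h (adjusted p = 1.92e-12), or 16.6-fold. The call at 2 h was lost with mitochondrial scaling (-1.31, adjusted p = 0.6).

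SESN2, a sestrin that restrains mTORC1 when leucine is scarce, had 29.4 and 21.4 CPM in DMSO at 2 h and 5.68 and 4.44 CPM in toyocamycin. At 72 h it had 20.5, 25.6 and 19.9 CPM in DMSO and 149.3, 161.7 and 164.9 CPM in toyocamycin. The arms did not overlap at either time. It fell 5.0-fold at 2 h (log2 -2.32, SE 0.21, adjusted p = 1.1e-05) and rose 7.37-fold at 72 h (log2 2.88, SE 0.16, adjusted p = 1.38e-10) in edgeR's test.

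CHAC1, an enzyme that degrades glutathione, had the largest drop of the members that passed at 2 h. DMSO had 9.63 and 5.45 CPM there and toyocamycin 0.911 and 1.25 CPM, a fall of 2.82 on the log2 scale (SE 0.39, adjusted p = 0.000314, edgeR). At 72 h DMSO had 4.96, 9.89 and 5.92 CPM and toyocamycin 9.63, 9.27 and 11.7 CPM, so that the arms overlapped. The rise at 72 h was small, 0.59 ± 0.27 (SE, adjusted p = 0.0525, edgeR). It was lost when replicate 1 or 3 of DMSO or replicate 3 of toyocamycin was left out (adjusted p of 0.201, 0.144 and 0.166), and became -0.0025 with library size alone and -0.46 with mitochondrial scaling.

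DDIT4 encodes REDD1, an inhibitor of mTORC1 that ATF4 and hypoxia induce. At 2 h it had 8.58 and 8.02 CPM in DMSO and 2.03 and 1.35 CPM in toyocamycin, a fall of 2.27 on the log2 scale (SE 0.30, adjusted p = 0.000206, edgeR). At 24 h toyocamycin stood above DMSO, at 10.9 against 4.87 CPM. At 72 h DMSO had 13.2, 24.3 and 17.5 CPM and toyocamycin 12.8, 11.4 and 12.4 CPM. DDIT4 was the only member lower at both ends of the series, and its fall at 72 h was 0.56 on the log2 scale (SE 0.21, adjusted p = 0.0227, edgeR). That call was lost without replicate 2 of DMSO (-0.30, adjusted p = 0.188) and with DESeq2 size factors (-0.24, adjusted p = 0.306).

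TRIB3, a pseudokinase induced by ATF4 and CHOP that holds both in check, had 24.0 and 26.1 CPM in DMSO and 20.8 and 15.9 CPM in toyocamycin at 2 h, where it did not pass. At 72 h it had 49.8, 57.2 and 41.3 CPM in DMSO and 93.1, 101.1 and 118.7 CPM in toyocamycin. All 3 drug libraries were above DMSO, by 1.11 ± 0.15 on the log2 scale (SE, adjusted p = 6.37e-06, edgeR). With mitochondrial scaling this was 0.02 (adjusted p = 0.976).

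The 6 enzymes of serine synthesis and one-carbon metabolism split evenly at 72 h, 3 higher and 3 lower, and none passed at 2 h. PHGDH opens the serine pathway from a glycolytic intermediate, and PSAT1 and PSPH complete it. PHGDH was higher at 10 h (-0.62 with mitochondrial scaling), but lower at 48 h (50.4 CPM against 101.9 CPM in DMSO) and at 72 h, where DMSO had 119.1, 125.8 and 109.1 CPM and toyocamycin 54.3, 58.9 and 66.7 CPM. The arms did not overlap at 72 h, with a fall of 0.94 on the log2 scale (SE 0.12, adjusted p = 3.21e-06, edgeR).

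PSPH rose where PHGDH fell. It had 31.6, 31.1 and 33.8 CPM in DMSO at 72 h and 52.6, 44.9 and 48.5 CPM in toyocamycin, a log2 fold change of 0.63 ± 0.13 (SE, adjusted p = 0.000341, edgeR) that became 0.03 with library size alone and -0.43 with mitochondrial scaling. PSAT1 passed at 72 h by 0.29 ± 0.14 (SE, adjusted p = 0.0606, edgeR) with overlapping arms, and leaving out replicate 1 or 2 of DMSO or replicate 1 or 3 of toyocamycin took the call away. It became -0.31 with library size alone and -0.76 with mitochondrial scaling. Along the serine route, then, the entry enzyme was lower and the later enzymes higher at 72 h under TMM scaling.

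In mitochondria, SHMT2 passes a carbon from serine to folate, MTHFD2 oxidises the product, and ALDH1L2 releases it as carbon dioxide with NADPH. SHMT2 was higher at 10 h (443.2 and 299.6 CPM against 189.9 CPM in DMSO) and at 24 h (394.5 against 190.2 CPM). At 72 h it was lower, at 178.1, 185.8 and 200.6 CPM against 305.8, 333.9 and 285.4 CPM. Its effect thus changed sign within the series under TMM scaling (with mitochondrial scaling it was -0.11 at 10 h), ending at -0.68 ± 0.12 on the log2 scale (SE, adjusted p = 6.54e-05, edgeR).

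MTHFD2 had 129.1, 120.5 and 140.5 CPM in DMSO and 55.2, 44.5 and 48.1 CPM in toyocamycin at 72 h, and no earlier time passed. It fell by 1.37 on the log2 scale (SE 0.13, adjusted p = 5.81e-08, edgeR). ALDH1L2 was the largest rise of the group. DMSO had 0.644, 0.604 and 1.24 CPM at 72 h and toyocamycin 6.88, 7.69 and 6.26 CPM, with counts of 70 to 83 per drug library. The log2 fold change was 3.07 ± 0.29 (SE, adjusted p = 7.51e-08, edgeR), 8.39-fold. At 72 h SHMT2 and MTHFD2 were thus lower and ALDH1L2 higher than DMSO.

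Of the 5 other enzymes, ASNS rose, PCK2, ALDH18A1 and CTH fell, and PYCR1 did not pass at 72 h. ASNS makes asparagine and is a textbook target of ATF4 through the element printed above. Its counts were low, between 8 and 26 in each DMSO library, or 0.385 to 1.10 CPM. Toyocamycin had 0.497 and 0.813 CPM at 2 h, 1.14 and 0.884 CPM at 10 h and 0.825 CPM at 24 h, all within or near the DMSO range. It then had 9.36 CPM at 48 h and 9.83, 12 and 11.1 CPM at 72 h (100 to 130 counts). ASNS thus did not pass up to 24 h and was above every DMSO library from 48 h on, by 4.0 ± 0.32 on the log2 scale at 72 h (SE, adjusted p = 9.47e-09, edgeR), 16.0-fold. Of its exonic bases, 49.3% are shared with a long noncoding RNA on the same strand that the count table does not list.

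PCK2, the mitochondrial enzyme that makes phosphoenolpyruvate, showed the largest fall of the 33 at 72 h. It did not pass at 10 h, at 29.1 and 38.3 CPM in toyocamycin against 23.0 CPM in DMSO (adjusted p = 0.109, edgeR), a difference that passed with DESeq2 size factors and with replicate 1 of toyocamycin alone. At 24 h DMSO had 23.4 CPM and toyocamycin 22.8 CPM. At 48 h the levels were 16.6 against 6.67 CPM. At 72 h DMSO had 37.0, 45.8 and 33.1 CPM and toyocamycin 2.16, 2.78 and 3.22 CPM. The arms lay far apart, and the fall was 3.79 on the log2 scale (SE 0.20, adjusted p = 7.57e-11, edgeR), 13.8-fold.

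ALDH18A1, which commits glutamate to proline synthesis, had 226.7, 240.1 and 252.0 CPM in DMSO and 90.5, 84.9 and 93.8 CPM in toyocamycin at 72 h. It fell by 1.38 on the log2 scale (SE 0.11, adjusted p = 1.5e-08, edgeR). PYCR1, which ends that route, was higher at 10 h (-0.14 with mitochondrial scaling) and at 24 h, and had -0.19 at 72 h, with overlapping arms. CTH, which makes cysteine from cystathionine, was lower at 10 h, at 2.21 and 1.33 CPM against 5.19 CPM. Its fall at 72 h was 0.42 (SE 0.19, adjusted p = 0.0547, edgeR), and the call was lost without replicate 1 of DMSO, replicate 1 of toyocamycin or replicate 2 of toyocamycin, and with DESeq2 size factors (-0.10, adjusted p = 0.643).

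**Figure D3:**
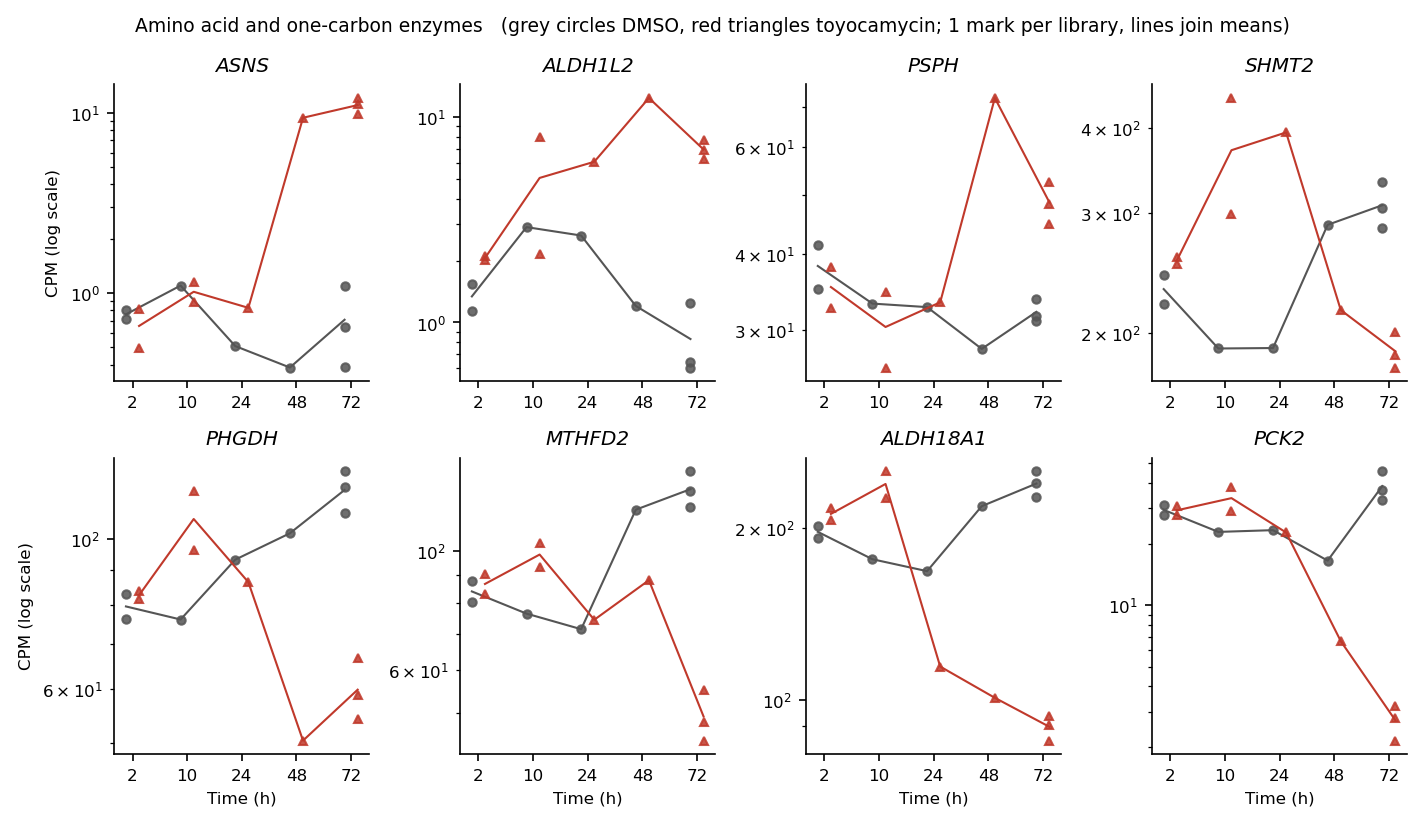
CPM of 8 enzymes on a log axis against time in hours (evenly spaced), with 1 mark for each library, grey circles for DMSO, red triangles for toyocamycin, and lines through the means. ASNS, ALDH1L2 and PSPH end above DMSO, and SHMT2, PHGDH, MTHFD2, ALDH18A1 and PCK2 end below it.

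Of the 3 transporters, SLC3A2 rose, SLC7A5 fell and SLC7A1 did not pass at 72 h. SLC3A2 is the heavy chain (CD98) that brings several light chains to the membrane, and SLC7A5 (LAT1) is one of these light chains, which carries leucine and other large amino acids. SLC3A2 had 494.1, 502.3 and 406.0 CPM in DMSO and 1112, 1142 and 1213 CPM in toyocamycin at 72 h, a rise of 1.34 ± 0.14 on the log2 scale (SE, adjusted p = 3.67e-07, edgeR) that was 0.24 with mitochondrial scaling (adjusted p = 0.625). SLC7A5 had 1184, 1124 and 822.6 CPM against 636.1, 768.4 and 841.1 CPM.

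The SLC7A5 libraries overlapped at 72 h, and the fall of 0.45 on the log2 scale (SE 0.17, adjusted p = 0.0222, edgeR) was lost without replicate 1 of either arm and with DESeq2 size factors (-0.13, adjusted p = 0.494). Heavy and light chain differed in direction at 72 h under TMM scaling, and both were higher at 24 h under that scaling (681.9 against 418.0 CPM for SLC3A2 and 877.4 against 507.0 CPM for SLC7A5). SLC7A1 (CAT1), the carrier of arginine and lysine, was lower at 10 h and had -0.04 at 72 h, which became 0.28 with DESeq2 size factors.

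The 4 genes of secreted factors and a receptor were all higher at 48 and 72 h, and 3 of them stood on few counts in DMSO. GDF15, a stress hormone that curbs appetite, was the abundant member. At 2 h it had 7.87 and 3.03 CPM in DMSO and 6.01 and 3.58 CPM in toyocamycin. At 10 h it had 175.0 and 24.2 CPM against 4.09 CPM, at 24 h 749.5 against 7.36 CPM and at 48 h 806.5 against 6.11 CPM. At 72 h toyocamycin had 959.8, 1185 and 1024 CPM and DMSO 48.7, 54.5 and 38.2 CPM. The drug libraries were above DMSO at each time from 10 h on, and the DMSO level itself was higher at 72 h than before. The log2 fold change at 72 h was 4.52 ± 0.27 (SE, adjusted p = 3.9e-10, edgeR), next to 7.07 at 48 h, where each arm had 1 library, and the difference between these times was not tested.

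STC2, a stanniocalcin that blocks release of growth factor from its binding protein, had 1, 2 and 1 counts in DMSO and 66, 70 and 56 in toyocamycin at 72 h. The ratio was 96.1, with a 95% counting interval of 36.9 to 356. At 48 h it had 3 against 47 counts. ADM2, a peptide hormone of the adrenomedullin family, had 5, 7 and 3 counts against 84, 124 and 118 at 72 h, a log2 fold change of 5.43 ± 0.37 (SE, adjusted p = 1.34e-09, edgeR).

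VLDLR, the very low density lipoprotein receptor, had 0 counts in each DMSO library from 10 h on, and 11, 15 and 15 counts in toyocamycin at 72 h. Against 3 counts over the DMSO group this is at least 27.4-fold higher, and the bounds at 10, 24 and 48 h were 9.60-fold, 8.83-fold and 6.76-fold. These intervals and floors cover counting error only. Both arms of VLDLR were at or under 3 counts per library at 2 h.

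At 10 h the counts of the low-count members differed between the 2 drug libraries. Counts in replicates 1 and 2 of toyocamycin were 2 and 25 for STC2, 0 and 24 for ADM2, 6 and 22 for VLDLR, 1 and 12 for NUPR1, and 30 and 72 for ALDH1L2. Replicate 2 had fewer counts in all, yet held more of each. In that library fibroblast markers summed to 22.4 CPM against 0.785 CPM in replicate 1, endothelial markers to 12.3 against 0.642 CPM, and mitochondrially encoded genes took 6.55% of counts against 3.30%. The part of these in the 10 h values was not tested.

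Replicate 2 was also the drug library of the same batch as the DMSO library at 10 h, as the labels give it. Within that batch 11 members were higher and 9 lower, where 39.1% and 27.0% of all genes were. With replicate 1 in its place 14 were higher and 5 lower, where 24.0% and 28% of all genes were. The share of members higher was thus below that of all genes within the batch and above it with replicate 1. The members higher in both of these fits and in the fit of all libraries were 7, namely ATF4, ATF3, CEBPG, SHMT2, PYCR1, GDF15 and VLDLR. Those lower in all of them were 5, namely EIF2AK3, EIF2AK4, DDIT4, CTH and SLC7A1. ATF4 had a log2 fold change of 1.62 within the batch and 3.02 with replicate 1. ADM2 had 4.32 and -4.29, and SESN2, PHGDH and SLC7A5 did not pass within the batch.

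At 2 h each batch held 1 library of each arm, and the replicate number is the batch. The 7 members that fell were lower in both batches. These are the libraries that gave the calls, so the batches are no separate support for them. The log2 ratio of toyocamycin to DMSO was -2.67 in batch 1 and -2.22 in batch 2 for DDIT3, -3.40 and -2.13 for CHAC1, -2.37 and -2.27 for SESN2, and -2.08 and -2.57 for DDIT4. It was -1.29 and -0.85 for PPP1R15A, -1.26 and -1.10 for EIF2AK3, and -0.58 and -1.22 for ATF3. With the replicate number as a block, 8 members were lower, the addition being CEBPB, at -0.91 (adjusted p = 0.0117, edgeR). Over all members 14 had both drug libraries below both DMSO libraries at 2 h and 5 had both above, where 20.3% and 16.7% of all genes did.

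The difference between the effects at 72 h and at 2 h was tested as an interaction in the same fit, and 20 members were above 0 and 7 below it, where 38.0% and 38.1% of all genes were (76.1% in either direction). Of the 7 genes lower at 2 h, 6 were higher at 72 h, namely EIF2AK3, DDIT3, ATF3, PPP1R15A, CHAC1 and SESN2. The difference was 10.68 ± 0.31 (SE) for ATF3, 5.81 ± 0.43 for DDIT3, 5.2 ± 0.26 for SESN2, 5.13 ± 0.22 for PPP1R15A, 3.42 ± 0.48 for CHAC1 and 1.74 ± 0.24 for EIF2AK3. Their adjusted p lay between 7.32e-12 and 1.11e-05 (edgeR). The 6 genes were picked partly by their 2 h values, which also enter this difference. A further 14 members that did not pass at 2 h were higher at 72 h, and 9 were lower. These patterns over the 2 times were not counted among all genes, so they are not shown to be particular to the members. Both comparisons at these ends are with DMSO of the same hour.

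**Figure D4:**
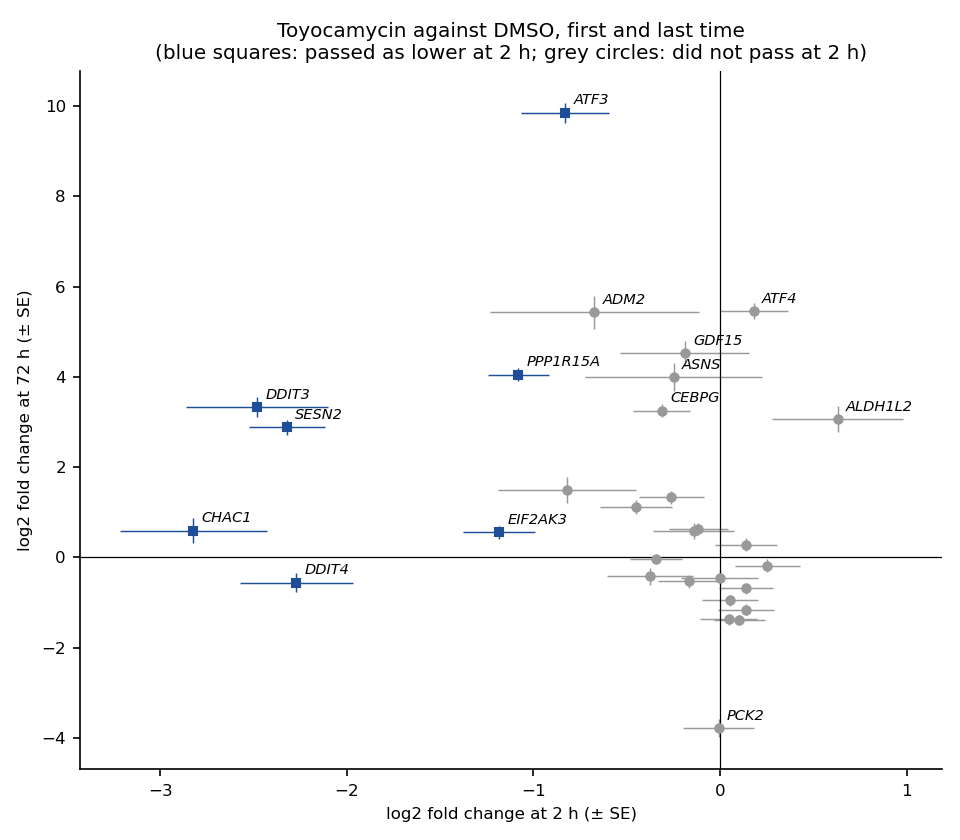
Log2 fold change of toyocamycin against DMSO at 2 h (horizontal) and at 72 h (vertical) with SE bars, 1 mark for each member, leaving out NUPR1, STC2 and VLDLR, whose counts were at most 3 per library in a group. The 7 blue squares passed as lower at 2 h, and of these all but DDIT4 lie above 0 at 72 h.

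Culture without drug moved some members too. Between 2 and 72 h in DMSO, 10 members were higher and 3 lower, where 10.2% and 11.4% of all genes were. Those lower were ATF3, ATF5 and VLDLR, the last with at most 3 counts in each library of both groups. The calls of ATF3 and ATF5 were lost in 6 and 7 of 16 alternatives, with the sign of ATF5 reversed in 1 more. GDF15 rose by 3.09 ± 0.32 on the log2 scale (SE, adjusted p = 1.54e-05), CEBPB by 1.93 ± 0.35 (adjusted p = 0.0017), DDIT4 by 1.14 ± 0.24 (adjusted p = 0.00491), DDIT3 by 1.02 ± 0.27 (adjusted p = 0.0176) and TRIB3 by 0.98 ± 0.18 (adjusted p = 0.00182), all in edgeR's test. ATF4, CEBPG, PPP1R15A, SESN2 and ASNS did not pass. MTHFD2, PHGDH and SHMT2 were higher in DMSO at 72 h than at 2 h, by 0.63, 0.57 and 0.41. The call of SHMT2 was lost in 8 of 16 alternatives, and those of MTHFD2 and PHGDH with mitochondrial scaling and with a minimum fold change of 1.5. SLC3A2 and SLC7A1 were also called higher, and these calls were lost in 9 and 12 of 16 alternatives. The rise of DDIT3 was 0.65 without replicate 2 of DMSO at 2 h (adjusted p = 0.174, edgeR) and 1.56 without replicate 1.

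These DMSO libraries are also the reference of the drug comparisons at 2 and 72 h, so the values only stand side by side. For MTHFD2, PHGDH and SHMT2, toyocamycin at 72 h was below DMSO at 2 h as well as at 72 h. DDIT4 in toyocamycin at 72 h (11.4 to 12.8 CPM) was above DMSO at 2 h (8.02 and 8.58 CPM) and below DMSO at 72 h (13.2 to 24.3 CPM). The 72 h libraries are all of batch 1, and without the batch 2 library of DMSO at 2 h 6 members were higher and 1 lower.

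**Figure D5:**
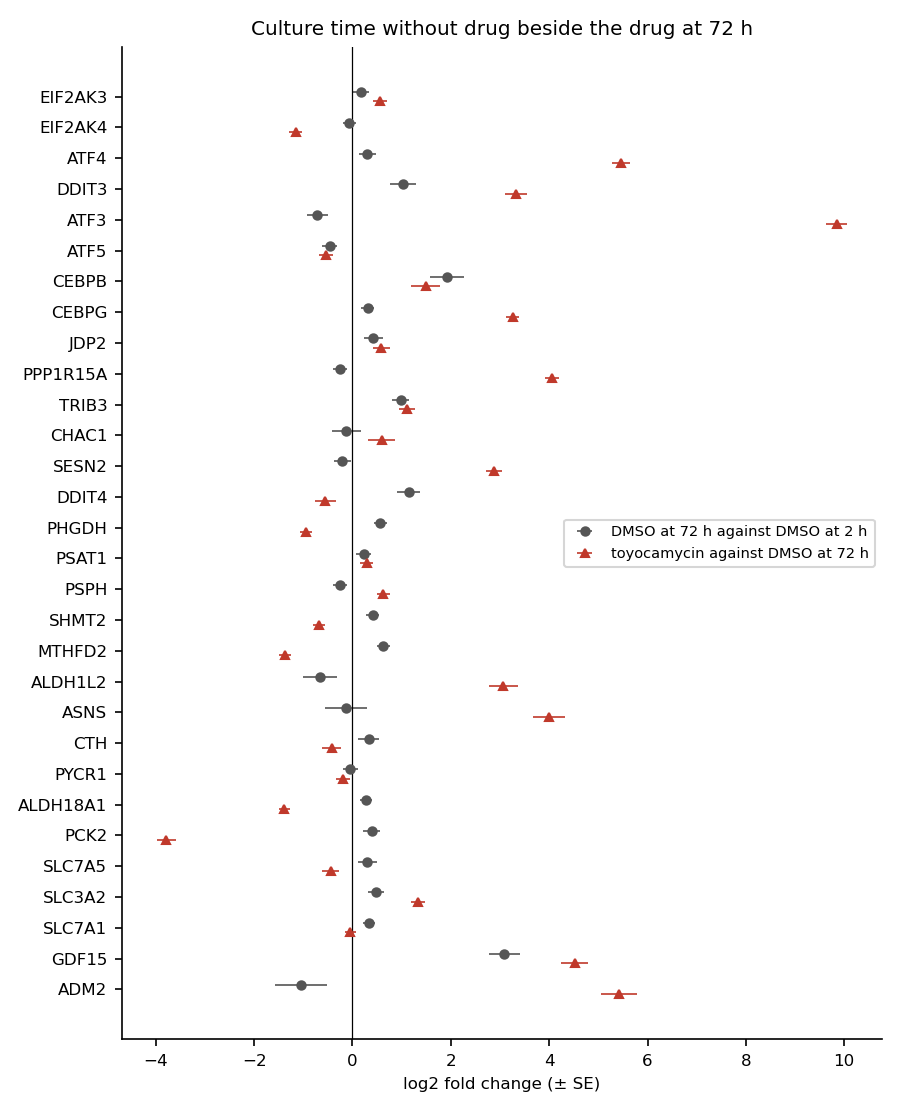
Log2 fold change with SE bars for 30 members, leaving out NUPR1, STC2 and VLDLR, for DMSO at 72 h against DMSO at 2 h (grey circles) and for toyocamycin against DMSO at 72 h (red triangles). GDF15 and CEBPB lie well to the right in both, while ATF4, ATF3, PPP1R15A and ASNS lie right of 3 on toyocamycin and at 0.30 or less in DMSO.

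A wider list of 46 genes of the same pathway that are not among the 33 had 44 genes in the fit. At 2 h 0 of these were higher and 8 lower (all genes 0.518% and 8.42%), and at 72 h 18 were higher and 24 lower (all genes 47.0% and 41.9%). The list's median log2 fold change at 72 h was -0.87. Of the 7 other eIF2 kinases and their regulators, 6 were lower at 72 h and IMPACT, which restrains GCN2, was higher, with overlapping arms. EIF2AK2, which encodes PKR, the kinase of double-stranded RNA, had 64.9 ± 12.5 CPM in DMSO and 9.46 ± 1.74 CPM in toyocamycin (SD, n = 3). GCN1, which GCN2 needs for its activation, had 429.5 ± 45.9 CPM against 112.2 ± 16.6 CPM (SD, n = 3). DELE1, which relays mitochondrial stress to the kinase HRI, had 49.6 ± 2.28 CPM against 4.75 ± 0.243 CPM (SD, n = 3).

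Of the 8 subunits of eIF2 and its exchange factor eIF2B, 3 were higher and 5 lower at 72 h (all genes 47.0% and 41.9%). EIF2S1, the alpha subunit that the kinases phosphorylate, rose by 1.56 ± 0.18 on the log2 scale (SE, adjusted p = 8.54e-07, edgeR), and EIF2S2 by 1.63 ± 0.16. Of the 5 eIF2B subunits EIF2B2 was higher and the other 4 were lower. PPP1R15B, the constitutive partner of the eIF2 alpha phosphatase, followed PPP1R15A in both directions, with -1.36 ± 0.14 at 2 h and 3.36 ± 0.12 at 72 h (SE, adjusted p = 2.48e-12 at 72 h, edgeR).

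Other amino acid genes moved both ways at 72 h, as did all genes tested (47.0% higher and 41.9% lower). Of 6 further transporters, 2 were higher at 72 h, SLC7A11 (the cystine carrier) and SLC38A2, and 4 were lower. SLC1A5, the glutamine carrier, had 2580 ± 342.4 CPM in DMSO and 34.1 ± 3.18 CPM in toyocamycin (SD, n = 3), a fall of 6.21 on the log2 scale (SE 0.18, adjusted p = 4.82e-13, edgeR). Of 8 further enzymes tested, 3 were higher and 5 lower, among them MTHFD1, the cytosolic partner of MTHFD2, which fell by 4.13 (SE 0.14), and AARS1, the alanyl tRNA synthetase, which fell by 2.72 (SE 0.13).

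The 11 other listed targets of ATF4 or CHOP tested had 7 higher and 3 lower at 72 h, where 47.0% and 41.9% of all genes were. The highest rises, of which BBC3, SESN1 and TNFRSF10B are also known p53 targets, were BBC3 (PUMA) at 5.27 ± 0.27, TXNIP at 4.80 ± 0.16, SESN1 at 4.55 ± 0.17 and TNFRSF10B (the death receptor DR5) at 4.12 ± 0.13 (log2 fold change and SE). ERO1A, an oxidase of the endoplasmic reticulum that CHOP induces, and EIF4EBP1, which binds eIF4E, fell by 2.05 and 0.98.

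Members with the response element in a promoter, 7 in number, had 6 higher and 0 lower at 72 h, with SLC7A1 not passing. The 21 members whose promoters lacked it had 12 higher and 9 lower. Of the 6 higher members with the element, CHAC1 and JDP2 turned below 0 with library size alone and with mitochondrial scaling. So did EIF2AK3 and PSAT1 among those without it. Among all genes tested that had a promoter entry, 52.1% of the 340 with the element were higher and 37.9% lower at 72 h, against 46.1% and 43.0% of the 11249 without it. At 2 h 2 of the 7 members with the element were lower, ATF3 and CHAC1, and 5 of the 21 without it. Among all these genes 9.71% with the element and 8.72% without it were lower at 2 h. No test was made of these splits.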

How the data were processed

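Whole-number counts per gene were deposited by the authors, who aligned the reads to GRCh38 with STAR 2.7.5a and let it count them per gene, without normalization and with a strand setting not given in the sources used here, and these counts were tested as deposited. A further file holds the authors' own edgeR fold changes and p-values and was not used, and 1 column of per-sample counts matched no labelled sample and was left out. With R 4.3.3 and edgeR 4.0.16, genes were filtered by filterByExpr and scaled by TMM, and each contrast was tested by the quasi-likelihood test in the form of edgeR 3, with Benjamini-Hochberg adjustment over all genes tested and a threshold of 0.1. The fit of 14 libraries gave 2, 24, 48 and 72 h and the fit of 17 libraries gave 10 h. With single libraries at 24 and 48 h, variance was taken from the replicated times, so no p of a single gene is given. CPM were scaled by TMM over all 17 libraries, with DESeq2 1.42.0 as an alternative. The members, gene lists and tests were chosen with earlier results of these data known. Full statistics are given for DDIT3, ATF4, ATF3, TRIB3, CHAC1, ASNS and the largest rise and fall at 72 h of each role with libraries that did not overlap, with others named beside them by role. Same-numbered libraries at 2 h share a batch per the labels (deviations of the pair correlated at 0.307), and at 72 h the numbers did not pair (-0.105, 0.0427 and -0.0876). Positions came from GENCODE 44 on GRCh38. The scripts were tested on simulated data.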

Additional observations from a re-analysis of the deposited data

Results flagged for a closer look

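The effect of toyocamycin differed between 2 h and 72 h for 27 members by the test of that difference (edgeR quasi-likelihood test, Benjamini-Hochberg adjusted p under 0.1 over all genes tested). The difference, as the log2 fold change at 72 h minus that at 2 h, was above 0 for 20. Among the factors it was 10.68 for ATF3, 5.81 for DDIT3, 5.28 for ATF4, 3.57 for CEBPG, 2.31 for CEBPB and 0.73 for JDP2, and it was 1.74 for the kinase gene EIF2AK3. Among the effectors it was 5.2 for SESN2, 5.13 for PPP1R15A, 3.42 for CHAC1, 1.71 for DDIT4 and 1.56 for TRIB3. Enzymes and the transporter had 4.25 for ASNS, 2.44 for ALDH1L2, 1.60 for SLC3A2 and 0.74 for PSPH, and GDF15 had 4.71. STC2 (9.45), VLDLR (9.0) and ADM2 (6.10) rest on few counts in DMSO, and their fitted size depends on the prior count.

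The difference was below 0 for 7 members. It was -3.78 for PCK2, -1.49 for ALDH18A1, -1.41 for MTHFD2, -1.29 for EIF2AK4, -1.0 for PHGDH, -0.82 for SHMT2 and -0.44 for PYCR1. The call of PYCR1 was lost in 13 of 22 alternatives, and that of JDP2 in 5, with its sign reversed in 1 more. The 2 h libraries come from both batches and the 72 h libraries from batch 1.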

How the results depend on the processing

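The counts of members higher and lower and the medians were recomputed under other scalings, filters, tests, thresholds and sets of libraries. At 2 h the count of 7 lower became 4 with scaling on the mitochondrially encoded genes, where EIF2AK3, PPP1R15A and ATF3 lost their calls. At 10 h, 6 were higher and 11 lower with library size alone, 2 were higher with mitochondrial scaling, 7 were higher at an adjusted p under 0.05, and 7 were higher and 3 lower with a minimum fold change of 1.5. At 24 h, library size alone gave 9 higher and 13 lower, mitochondrial scaling 4 and 18, and a minimum fold change of 1.5 gave 1 lower. At 48 h, library size alone gave 10 lower, and mitochondrial scaling 7 higher and 12 lower. At 72 h, 6 were lower with DESeq2 size factors, with the DESeq2 Wald test and with at least 10 counts in every library, 5 were lower with a minimum fold change of 1.5, and 12 were higher with mitochondrial scaling. The difference between the effects at 72 h and 2 h had 13 above 0 with mitochondrial scaling. For DMSO at 72 h against 2 h, library size alone gave 6 lower, mitochondrial scaling 5 higher and 0 lower, all 17 libraries 0 lower, and a minimum fold change of 1.5 gave 2 higher and 0 lower.

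The members' median turned negative with library size alone at 10 h (-0.0224) and 24 h (-0.41), and with mitochondrial scaling at 10, 24, 48 and 72 h (-0.69, -1.67, -1.10 and -0.43). Mitochondrial scaling turned 10 h values of CEBPG (-0.0367), SESN2 (-0.11), PHGDH (-0.62), SHMT2 (-0.11), PYCR1 (-0.14) and SLC7A5 (-0.23), 72 h values of EIF2AK3 (-0.53), JDP2 (-0.52), CHAC1 (-0.46), PSAT1 (-0.76) and PSPH (-0.43), the difference of effects for JDP2 (-0.16) and PSPH (-0.20), and the DMSO change of ATF5 (0.26). Library size alone turned EIF2AK3 (-0.0428), JDP2 (-0.013), CHAC1 (-0.0025) and PSAT1 (-0.31) at 72 h. SLC7A1 at 72 h became 0.28 with DESeq2 size factors, 0.28 with the DESeq2 Wald test and 0.24 with at least 10 counts in every library. PPP1R15A at 10 h became -0.49 with the replicate block and ranged from -0.49 to 0.46 when either drug library was left out, where ADM2 ranged from -4.29 to 4.32. Both of these scalings also moved the median of all genes. The cause of the other shifts was not tested.

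Leaving out each library gave 6 to 8 members lower and 0 higher at 2 h, 11 to 14 higher and 5 to 9 lower at 10 h, and 18 to 20 higher and 8 to 11 lower at 72 h. It gave 19 to 20 above 0 and 6 to 9 below 0 for the difference of effects, and 6 to 11 higher and 0 to 3 lower for DMSO with time. The members' median at 10 h was 0.064 to 0.194 with either drug library left out. The lowest counts for DMSO came without replicate 2 at 2 h (6 higher, 1 lower) and without replicate 2 at 72 h (0 lower). With the replicate block at 2 h 8 members were lower, and at 10 h 13 were higher and 10 lower, where 38.7% and 28.4% of all genes were. The 72 h numbers did not pair. Precision is limited by the single libraries at 24 and 48 h and by counts of at most 2 in each DMSO library at 72 h for STC2 and VLDLR.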
